A study of Arabidopsis thaliana with 4 samples.

Results

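AT2G29340 and its neighbours on Arabidopsis chromosome 2 form a row of related genes that encode short-chain dehydrogenases resembling tropinone reductases. AT2G29340 was selected on its signal, which was lower in nlp7-1 than in wild-type roots, and the other copies were added by locus, as its neighbours in the row, with earlier results of these data known. Of the 10 genes, 9 had a probe set naming that gene and no other, among the 13513 such probe sets of the series. AT2G29350 (SAG13), widely used as a marker of senescence and stress, was not analysed here.

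Transcript levels were measured in whole roots of the nlp7-1 mutant (2 samples) and of wild-type Col-0 (2 samples), both in the Col-0 background, at an age given as 5 dai. Each sample pooled about 60 roots cut off below the hypocotyl, from untreated plants on agar of pH 5.7 that held 1x MS salts, under 16 h of light a day and at 22 °C. RNA was labelled from 1 µg of total RNA and hybridised to 1 Affymetrix ATH1 array per sample, 4 arrays in all. NLP7 encodes a transcription factor of nitrate signalling, and 0 probe sets were named for it, so the genotype labels could not be checked on the mutated gene.

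Short-chain dehydrogenases are enzymes that use NAD(H) or NADP(H) to reduce carbonyl groups or oxidise alcohols, with a nucleotide-binding fold and a catalytic tyrosine. In plants of the nightshade family, a pair of tropinone reductases stands at the branch point of tropane alkaloid synthesis and reduces the same ketone to different alcohols. Many plants that do not make those alkaloids carry tandem arrays of related genes, and the natural substrates of most of the Arabidopsis copies are not established.

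By the order of loci that RefSeq gives for TAIR10.1, 9 of the 10 genes run from AT2G29260 to AT2G29360, interrupted by 2 pseudogenes and 1 other protein-coding gene. AT2G29150 lies apart, with 7 protein-coding genes between it and AT2G29260. Whether the probes of AT2G29290 also read the pseudogene AT2G29280 was not tested. All 9 probe sets carry the plain suffix of the array design. Whether the probes of one copy also bind transcripts of another was not tested.

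The deposited values are MAS5 signals, that is, linear intensities for each probe set. Their size also depends on how well each probe set binds, so the copies are not ranked by level. The median signal over the whole array was 99.3 to 99.5 in nlp7-1 samples and 97.5 to 101 in wild-type samples. Probe sets entered the test when their average log2 signal reached the 40th percentile of all, a signal of 59.4. Of the 9 measured copies, 3 passed this filter (AT2G29320, TRI and AT2G29340) and 6 lay below it. Between replicates, the log2 difference had an SD of 0.25 in nlp7-1 and 0.31 in wild type over probe sets above the filter. Below the filter the SD was 1.11 in both genotypes, which limits what the 6 weak copies can show.

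**Figure D1:**
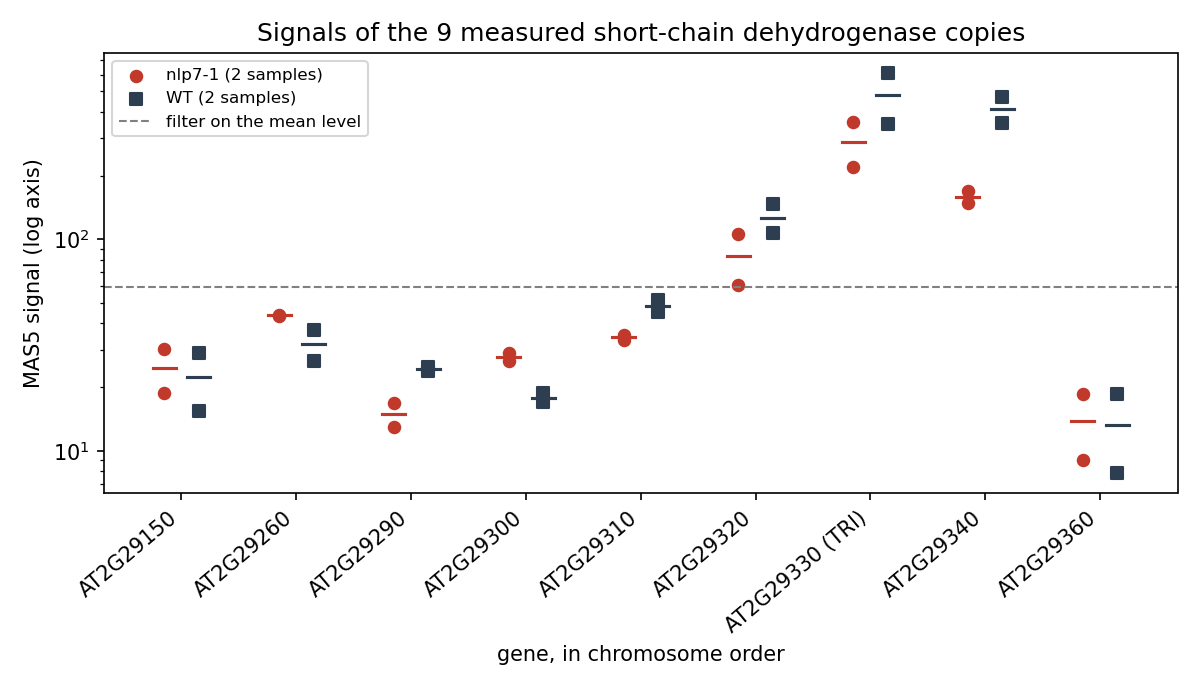
MAS5 signal (log axis) of the 9 measured copies in chromosome order, with the nlp7-1 samples as circles left of the wild-type samples as squares, short bars for the mean of 2 samples and a dashed line at the filter signal of 59.4. AT2G29340 has the widest gap between genotypes, with both nlp7-1 samples at or below 170 and both wild-type samples at or above 355.

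AT2G29340 was lower in both mutant samples. Its signal was 148 and 170 in the nlp7-1 samples, against 355 and 470 in the wild-type samples. The genotypes did not overlap, and the lowest wild-type signal was 2.09 times the highest mutant signal. The mean was 159 ± 16 in nlp7-1 and 412 ± 81 in wild type (SD, n = 2 each). The log2 difference between genotypes was -1.37 ± 0.17 (SE of the moderated fit), a signal 2.58 times higher in wild type. When each mutant array was set against each wild-type array, in 4 pairings, the log2 difference ran from -1.67 to -1.06, and replicates of one genotype differed by 0.20 in nlp7-1 and 0.41 in wild type. This gene was chosen for its difference, so these values describe it and no test is given. Over the 13648 probe sets above the filter, 0.63% were called lower in nlp7-1, a share that gives no test of this gene.

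TRI (AT2G29330), named tropinone reductase in the annotation and the gene just before AT2G29340 in the row, had lower means in the mutant, but its samples overlapped. Its signal was 219 and 358 in the nlp7-1 samples, against 350 and 611 in the wild-type samples. The higher mutant sample thus stood just above the lower wild-type sample. The log2 difference was -0.72 ± 0.32 (SE) and did not pass (limma adjusted p = 0.408). The 95% interval ran from -1.49 to 0.05, so it held both no difference and a decrease as large as that of AT2G29340. Without WT replicate 1 the log2 difference was -1.12 and passed (limma adjusted p = 0.0396), while without nlp7-1 replicate 1 it was -0.37 and without WT replicate 2 it was -0.32.

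AT2G29320, the copy before TRI, had signals of 60.5 and 106 in the nlp7-1 samples, against 107 and 146 in the wild-type samples. The genotypes did not overlap, by a margin of under 1%, since the lowest wild-type signal was 1.01 times the highest mutant signal. The log2 difference was -0.64 ± 0.30 (SE, 95% interval -1.36 to 0.07) and did not pass (limma adjusted p = 0.428). Without nlp7-1 replicate 1 it was -0.24, and without nlp7-1 replicate 2 it was -1.04. In both genotypes the sample numbered 2 had the higher signal of AT2G29320, TRI and AT2G29340. The labels do not say that a number marks a shared batch. A fit with that number as a block changed the calls of TRI and AT2G29320, and its values are given with the processing settings below.

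Of the 2 copies that were tested, TRI and AT2G29320, 0 passed in limma and 0 had an unadjusted p under 0.05, where 2.27% of all probe sets above the filter passed. An unmoderated two-sample test called 0 of the 2, and 0 probe sets of the whole table, so it also gives 0 for each gene list below. The call count behind that share, 310 probe sets, was 14 without nlp7-1 replicate 1, 35 without nlp7-1 replicate 2 and 770 without WT replicate 1.

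**Figure D2:**
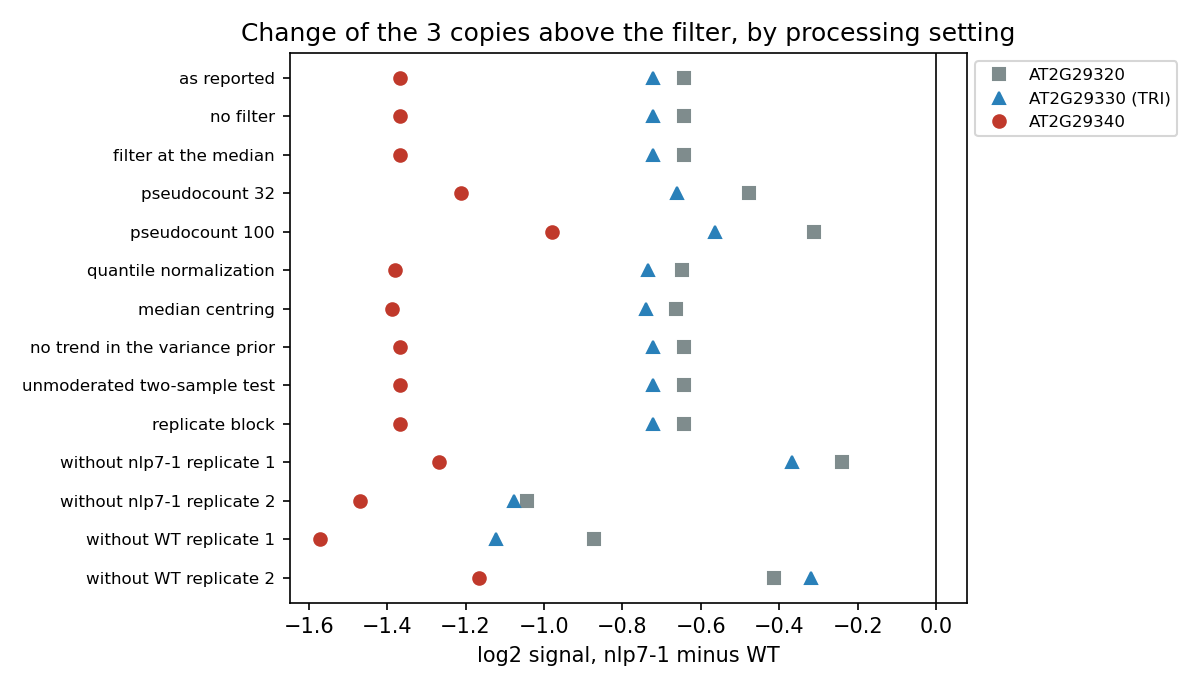
Log2 signal of nlp7-1 minus wild type for the 3 copies above the filter (horizontal axis) under each processing setting (rows). AT2G29340 lies between -1.57 and -0.98. With 1 sample left out, TRI runs from -1.12 to -0.32 and AT2G29320 from -1.04 to -0.24, and both stay below 0 in every setting.

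The 6 copies below the filter had signals between 7.8 and 51.5, and their genotype differences went both ways. With no filter, 0 of the 8 copies other than AT2G29340 passed in limma, where 1.05% of all 22746 probe sets passed, and 0 of the 6 weak copies had an unadjusted p under 0.05. In 2 of the 6 both mutant samples were lower, in 2 both were higher, and in 2 the genotypes overlapped. Over all probe sets below the filter, 34.9% had no overlap between genotypes, 18.6% with both mutant samples lower and 16.3% with both higher. The following log2 differences come from the fit with no filter, and all shrink when a pseudocount is added.

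AT2G29290 had signals of 12.9 and 16.8 in the nlp7-1 samples, against 23.8 and 24.9 in the wild-type samples. The log2 difference was -0.72 ± 0.38 (SE), and -0.27 with a pseudocount of 32. AT2G29310 had 33.4 and 35.3 in the nlp7-1 samples, against 51.5 and 45.2 in the wild-type samples, a log2 difference of -0.49 ± 0.26 (SE). Neither passed the test (limma adjusted p = 0.596 and 0.591).

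AT2G29300, the gene between AT2G29290 and AT2G29310, ran the other way, at 29.1 and 26.6 in the nlp7-1 samples, against 16.9 and 18.7 in the wild-type samples. Its log2 difference was 0.64 ± 0.34 (SE, 95% interval -0.18 to 1.47; limma adjusted p = 0.600). AT2G29260, the first gene of the main row, had 43.2 and 44.0 in the nlp7-1 samples, against 26.6 and 37.2 in the wild-type samples. Its log2 difference was 0.47 ± 0.29 (SE, limma adjusted p = 0.660). Both mutant samples were above both wild-type samples in these 2 genes, and neither passed.

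In the remaining 2 copies the genotypes overlapped. AT2G29150, the copy set apart from the row, had 30.4 and 18.7 in the nlp7-1 samples, against 15.4 and 29.1 in the wild-type samples. AT2G29360, on the far side of AT2G29350, had 9.1 and 18.5 in the nlp7-1 samples, against 7.8 and 18.5 in the wild-type samples. Their log2 differences were 0.18 ± 0.46 and 0.11 ± 0.63 (SE), with 95% intervals of -0.94 to 1.29 and -1.41 to 1.63. An interval that wide also holds a change of the size seen in AT2G29340 in either direction for AT2G29360.

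Over the 8 measured copies other than AT2G29340, 3 had both mutant samples lower, 2 had both higher and 3 overlapped, where 20.0% of all probe sets had both mutant samples lower, 20.4% both higher and 40.4% no overlap in either direction. The median log2 difference over these 8 copies, 6 of them below the filter, was -0.19, beside -0.006 over all probe sets. With AT2G29340, which was chosen for its difference, the median over the 9 copies was -0.49. From AT2G29310 to AT2G29340, 4 adjacent genes in the table, the log2 differences were -0.49, -0.64, -0.72 and -1.37. This order was noticed after the values were seen, and its first value is from below the filter.

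Further genes of the same type flank the row. AT2G29370, next after AT2G29360, had 20.3 and 23.6 in the nlp7-1 samples, against 28.7 and 29.6 in the wild-type samples (log2 difference -0.41 ± 0.32, SE). AT2G29170, near AT2G29150, had 8.6 and 14.7 in the nlp7-1 samples, against 14.3 and 8.6 in the wild-type samples. Both lay below the filter, and neither passed in the fit with no filter (limma adjusted p = 0.729 and 0.995).

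Genes around the row did not pass the test. Of 36 neighbours with a probe set of their own between AT2G28800 and AT2G29800, 20 were above the filter. In limma 0 of the 20 passed and 2 had an unadjusted p under 0.05, where 2.27% and 13.2% of all probe sets above the filter did. Their median log2 difference was 0.03, beside 0.00 over all probe sets above the filter, and 9 of the 20 had no overlap, where 44.1% of all did. The smallest p belonged to THIC (AT2G29630), of thiamine synthesis, at 200 and 246 in the nlp7-1 samples, against 101 and 170 in the wild-type samples (log2 difference 0.75 ± 0.26, SE; limma adjusted p = 0.275). Calls with a sample left out are given with the processing settings below. Of the 7 tau-class glutathione transferase genes that follow the row, 0 had a probe set naming 1 gene, and they are not analysed here.

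**Figure D3:**
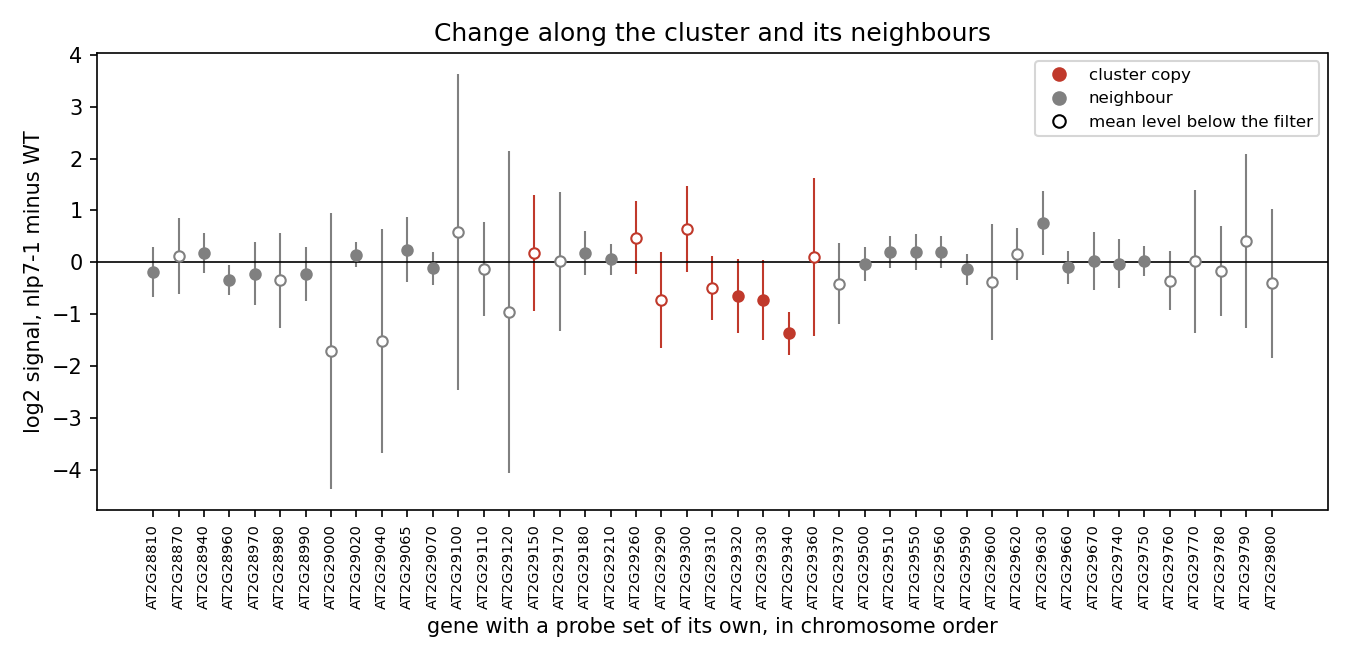
Log2 signal of nlp7-1 minus wild type with 95% intervals of the moderated fit (vertical axis) for each gene with a probe set of its own from AT2G28810 to AT2G29800, in chromosome order. Cluster copies are red, neighbours grey, and open circles lie below the filter and take their interval from the fit with no filter. The log2 differences of the cluster copies run from -1.37 for AT2G29340, which was chosen for its difference, to 0.64 for AT2G29300.

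Other short-chain dehydrogenase genes were compared by a list of 75 loci, of which 45 had a probe set of their own and 25 were above the filter. The list also holds AT2G29170 and AT2G29370, which lie near the row and are counted among its neighbours too. Both were below the filter. Of the 25, 1 rose, 0 fell and 24 did not pass in limma, where 1.64% of all probe sets above the filter rose, and the median log2 difference was -0.02. The gene that rose was AT1G24360, a plastid ketoacyl-ACP reductase of fatty acid synthesis, with 3719 and 3588 in the nlp7-1 samples, against 1881 and 1958 in the wild-type samples (log2 difference 0.93 ± 0.09, SE; limma adjusted p = 0.0186). PORB, a protochlorophyllide reductase of the same superfamily, had 74.7 and 78.4 in the nlp7-1 samples, against 95.1 and 115 in the wild-type samples, and did not pass (limma adjusted p = 0.342). AT5G53090 and AT4G03140 had log2 differences of 0.38 and 0.37, and neither passed (limma adjusted p = 0.273 and 0.565). The list had 0 calls without nlp7-1 replicate 1 or nlp7-1 replicate 2, and 2 without WT replicate 1.

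Copies of this cluster, SAG13 above all, are known to respond to stress, senescence and foreign chemicals, so genes of those responses were set beside them. Of 17 senescence genes, 4 had a probe set of their own, 3 were above the filter and 0 passed in limma. WRKY6 and SAG101 had log2 differences of 0.03 ± 0.12 and -0.22 ± 0.20, and WRKY53 had 0.23 ± 0.46 (SE). In all 3 the genotypes overlapped, where 44.1% of all probe sets above the filter had no overlap. Of 23 detoxification genes, 7 had a probe set of their own. Of these, 5 were above the filter, 0 passed and 1 had an unadjusted p under 0.05. Over all probe sets above the filter, 2.27% passed and 13.2% had an unadjusted p under 0.05. The median log2 difference of the 5 genes was -0.39, with a range of -0.41 to -0.20, beside a median of 0.00 over those probe sets. In 2 of the 5 both mutant samples were lower and in 0 both were higher, where 44.1% of all had no overlap in either direction. UGT73B1, a glycosyltransferase, had 565 and 693 in the nlp7-1 samples, against 827 and 819 in the wild-type samples (limma adjusted p = 0.273). UGT73B5, another glycosyltransferase, had a log2 difference of -0.24, GSTU25, a glutathione transferase, had -0.39 and AER, a reductase of reactive alkenals, had -0.41 (limma adjusted p = 0.481, 0.474 and 0.499). Without WT replicate 1, 1 of these 5 genes passed. Of 14 salicylic acid genes, 1 had a probe set of its own, and it was above the filter. This was AT5G52810, a gene of pipecolate synthesis. It had 121 and 108 in the nlp7-1 samples, against 130 and 175 in the wild-type samples (limma adjusted p = 0.430). It did not pass.

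For nitrate, the response in which NLP7 acts, 11 of 31 listed genes had a probe set of their own. Of the 11, 10 were above the filter. Of these, 2 fell, 0 rose and 8 did not pass in limma, and 5 had an unadjusted p under 0.05. Over all probe sets above the filter, 0.63% fell and 13.2% had an unadjusted p under 0.05. AT1G49500, a transcript induced by nitrate, had 992 and 1114 in the nlp7-1 samples, against 2125 and 2520 in the wild-type samples (log2 difference -1.14 ± 0.12, SE; limma adjusted p = 0.0186). AT2G27830 had 682 and 533 in the nlp7-1 samples, against 1099 and 1152 in the wild-type samples (log2 difference -0.90 ± 0.14, SE; limma adjusted p = 0.0367). AT1G16170 and AT5G62720 had log2 differences of -0.57 ± 0.12 and -0.43 ± 0.13 (SE), and neither passed (limma adjusted p = 0.0777 and 0.232). The list's median was -0.22, beside 0.00 over all probe sets above the filter. It had 0 calls without nlp7-1 replicate 1 and 1 without nlp7-1 replicate 2.

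The genes whose profile over the 4 samples was closest to that of AT2G29340 were found among 7317 named genes by the Euclidean distance of centred log2 signals. The closest was AT5G38900, at 95.1 and 99.4 in the nlp7-1 samples, against 217 and 327 in the wild-type samples (distance 0.18). Next came AT1G49500, the nitrate-induced transcript given above (distance 0.26). AT3G09405, of the pectin acetylesterase family, had 46.7 and 50.9 in the nlp7-1 samples, against 131 and 175 in the wild-type samples (distance 0.27). AT5G49780 and AT5G59700, both of receptor-like kinases, followed at 0.30 and 0.32, and AT4G07820, of the PR-1-like secreted proteins, at 0.32. With 4 samples in 2 genotypes, any gene that is lower in the mutant by a like amount comes close.

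**Figure D4:**
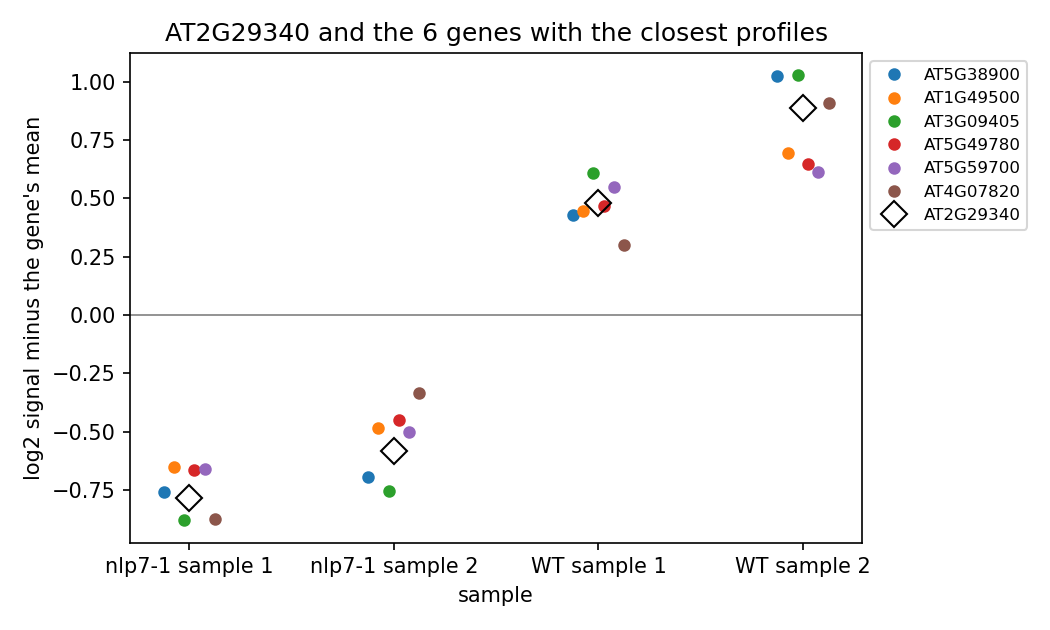
Log2 signal minus each gene's own mean (vertical axis) in the 2 nlp7-1 and 2 wild-type samples for AT2G29340 (open diamonds) and the 6 genes with the closest profiles (coloured points). All 7 genes lie below 0 in both nlp7-1 samples and above 0 in both wild-type samples, and WT sample 2 is the highest for each.

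Markers of root tissue were present. Of 20 root markers, 4 had a probe set of their own and all 4 were above the filter. PYK10, a beta-glucosidase abundant in roots, had 12548 and 12307 in the nlp7-1 samples, against 12794 and 12755 in the wild-type samples, and EXPA7, a root hair expansin, had 607 and 515 in the nlp7-1 samples, against 571 and 367 in the wild-type samples. The summed signal of the 4 root markers was 14631 to 15134 in nlp7-1 and 15265 to 15632 in wild type. The peroxidase genes AT4G36430 and AT5G66390 had log2 differences of -0.71 and -0.19. In limma 0 of the 4 root markers passed, and 1 had an unadjusted p under 0.05. Of the 4 root markers, 3 had both mutant samples lower and 0 had both higher. Over all probe sets above the filter, 2.27% passed and 13.2% had an unadjusted p under 0.05. Of those probe sets, 44.1% had no overlap between genotypes in either direction. Of 18 shoot and hypocotyl markers, 4 had a probe set of their own, with a summed signal of 710 to 852 in nlp7-1 and 872 to 1058 in wild type. LHCB4.1, an antenna protein of photosystem II, had 224 and 296 in the nlp7-1 samples, against 336 and 479 in the wild-type samples (limma adjusted p = 0.265). LHCB4.2 and RCA had log2 differences of -0.39 and -0.02. In limma 0 of the 3 markers above the filter passed, 1 had an unadjusted p under 0.05, and 1 had both mutant samples lower. The shares over all probe sets beside these counts are again 2.27%, 13.2% and, for no overlap in either direction, 44.1%. Without WT replicate 1, 1 of the 3 passed. The part of other tissue in the difference of AT2G29340 was not tested. In whole roots, fewer cells that express a gene and less RNA of it per cell cannot be told apart.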

How the data were processed

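The deposited intensities, 1 per probe set and linear, came from MAS5 according to the submitters' processing notes, which give no version here. The authors had scaled the arrays, since the mean after trimming was 250.0 in all 4. Of 22810 probe sets, 64 controls were left out. GEO's platform annotation named 1 gene for 13513 of the other 22746 probe sets and several for 503, and gene identifiers matched loci in the RefSeq table of TAIR10.1 for 13436. The files name no genome build, so that table gave names and gene order and no coordinates.

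The log2 of each intensity was used as it was, without pseudocount or renormalization. Above the filter, 13648 probe sets were tested two-sided in R 4.3.3 with limma 3.58.1 (lmFit and trended eBayes). P-values were adjusted by Benjamini and Hochberg's method, with a threshold of 0.05. SEs and 95% intervals are those of the moderated fit. Copies below the filter were fitted with no filter. The design text calls the samples biological replicates, and precision is limited by having 2 arrays per genotype. The members and lists were chosen with earlier results of these data known. Every measured member is named, with up to 4 genes of smallest p per list and the 6 genes closest to AT2G29340 in profile (2 for each other copy above the filter). Alternatives were other filters, pseudocounts of 32 and 100, quantile normalization, median centring, no variance trend, a replicate block, an unmoderated test and leaving out each sample. Figures were drawn with matplotlib 3.10.9 in Python 3.11.15.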

Additional observations from a re-analysis of the deposited data

How the results depend on the processing

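AT2G29340 stayed lower in nlp7-1 under every alternative run. Its log2 difference ran from -1.57 to -1.17 when a sample was left out and was -0.98 with a pseudocount of 100. It was chosen for being lower, and both mutant signals lay below both wild-type signals. Leaving out a sample or adding a pseudocount thus could not change its sign, and these values are a description. TRI and AT2G29320 also stayed below 0, from -1.12 to -0.32 and from -1.04 to -0.24 with a sample left out. With the replicate number as a block both passed in limma, TRI at -0.72 (adjusted p = 0.00133) and AT2G29320 at -0.64 (adjusted p = 0.0324), so the count of copies called besides AT2G29340 was 2 in place of 0. That block gave 1290 calls in place of 310 over the 13648 probe sets above the filter. Among list genes above the filter it called 2 of 5 detoxification genes, 4 of 10 nitrate genes and 1 of 25 other dehydrogenases. It also called 1 of 4 root markers, 1 of 3 shoot markers and 1 of 20 neighbours. Deviations of same-numbered samples correlated at 0.44 across probe sets. There are only 2 pairs, and no label ties a number to a batch. Whether same-numbered samples share more than a number was not tested. Without a variance trend 116 probe sets and 1 nitrate gene were called. The unmoderated test called 0 probe sets, and so 0 other dehydrogenases and 0 nitrate genes. With a sample left out, calls ran from 14 to 770 over all probe sets, 0 to 1 among the copies, 0 to 2 among other dehydrogenases and among nitrate genes, and 0 to 1 among detoxification genes, shoot markers and neighbours. Such fits take their spread from the genotype that keeps both samples. Among the copies below the filter, AT2G29150 turned to -0.17 without nlp7-1 replicate 1 and -0.29 without WT replicate 1, and AT2G29360 to -0.41 without nlp7-1 replicate 2 and -0.51 without WT replicate 1. Their highest values, without WT replicate 2, were 0.64 and 0.73. The cause of these changes was not tested. The filter at the median gives no value for the 6 weak copies.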

Other observations

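By the same distance of centred log2 signals, the profiles closest to TRI were AT1G80380, which encodes the glycerate kinase of photorespiration, and AT5G06570. AT1G80380 had signals of 1260 and 2129 in the nlp7-1 samples, against 1983 and 4020 in the wild-type samples (distance 0.17), and AT5G06570 had 234 and 358 in the nlp7-1 samples, against 420 and 681 in the wild-type samples (distance 0.19). The profiles closest to AT2G29320 were AT5G54300 and AT4G05070. AT5G54300 had 83.5 and 132 in the nlp7-1 samples, against 152 and 189 in the wild-type samples, and AT4G05070 had 1423 and 2193 in the nlp7-1 samples, against 2210 and 3102 in the wild-type samples (distance 0.15 for each). These 4 genes were chosen for the likeness of their profiles, so the likeness is a description.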
